A study of Mus musculus with 36 samples.

Results

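The Duox and lactoperoxidase system was followed through 5 genes, Duox2, Duoxa2, Duox1, Duoxa1 and Lpo, out of 31102 genes in the single-cell tables of mouse submandibular glands. They were chosen by name, as the enzymes that release hydrogen peroxide at an epithelial surface, the proteins that mature them and the peroxidase that uses the product. Duox2 and Duox1 encode dual oxidases, members of the NADPH oxidase family that make hydrogen peroxide outside the cell. Duoxa2 and Duoxa1 encode their maturation factors, which bring each oxidase out of the endoplasmic reticulum to the apical membrane. Lpo encodes lactoperoxidase, a secreted heme peroxidase of saliva, milk and airway fluid that uses hydrogen peroxide to turn thiocyanate into the antimicrobial hypothiocyanite. The question asked was which cells held transcripts of the peroxide source, which held those of the peroxidase, and how both differed by genotype and stage.

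Glands came from C57BL/6 mice. Control glands carried K14-Cre and the Cre-inducible R26-EYFP reporter, and double-mutant (tumor-bearing) glands carried in addition the β-catenin gain-of-function allele and homozygous Bmpr1a loss-of-function alleles (beta-catenin GOF; Bmpr1a LOF), so that recombination is expected in cells with keratin 14 promoter activity and their descendants. Drop-seq, which counts mRNA molecules per cell by unique molecular identifiers (UMIs), was done on 6 control and 7 double-mutant glands at postnatal day 40 (P40) and on 6 control and 7 double-mutant glands at P90, of both sexes. CITE-seq (RNA and surface epitopes of the same cells) was done on 2 control and 2 double-mutant glands at P70, and bulk RNA-seq on 1 female gland labelled wildtype at P70 and 1 female double-mutant gland at P100. Live cells had been sorted by FACS, and those for Drop-seq were fixed in methanol before capture.

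After filtering, 23346 of 26987 Drop-seq barcodes remained as cells, with 10743 in control glands (median depth 2062 UMIs) and 12603 in double-mutant glands (1151 UMIs). Libraries held between 777537 and 7013325 UMIs, and 14 barcode sequences occurred in more than 1 library. The labels or profiles of 3 double-mutant glands were in doubt: P40 replicate 1 and P90 replicate 5 carried sex-linked transcripts that went against their sex label, and P90 replicate 4 stood apart from its group, so results that rest on them are also given without them. The 2 glands with a contradicted sex label came from the same batch and from different stages, so that if they were exchanged their values would also stand under the wrong stage. All P40 control glands came from other batches than the P90 control glands, so stage and batch cannot be told apart in controls. Each library held the cells of 1 gland, and p-values measure the spread between these libraries.

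Duox2, Duoxa2, Duoxa1 and Duox1 lie in one stretch of chromosome 2, in 2 pairs that each face away from one another. In the mm10 annotation of the deposited counts, Duox2 spans chr2:122279247-122298165 on the minus strand, Duoxa2 chr2:122298900-122302885 on the plus strand, Duoxa1 chr2:122302191-122313730 on the minus strand and Duox1 chr2:122315672-122347972 on the plus strand. Lpo lies apart on the minus strand of chr11:87806428-87828289. The RefSeq start sites of Duox2 and Duoxa2 are 673 bases apart and those of Duoxa1 and Duox1 are 1942 bases apart. The 3′ parts of Duoxa2 and Duoxa1 overlap on opposite strands in 682 exon bases, chr2:122302204-122302885, which are 42.8% of the exon bases of Duoxa2 and 17.1% of those of Duoxa1. The use of strand in counting was not given for the single-cell tables, so reads of these bases may not be told apart.

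The 250 bases before the start sites of Duox2 and Duoxa2 are shown because both genes leave from the same short interval and their transcripts were found in the same cells, as described below. They are from RefSeq on GRCm38.p6, printed 5′ to 3′ on the strand of each gene, at chr2:122298228-122298477 for Duox2 and chr2:122298650-122298899 for Duoxa2. Capitals mark the 3 motifs named after the sequences, on either strand.
Duox2: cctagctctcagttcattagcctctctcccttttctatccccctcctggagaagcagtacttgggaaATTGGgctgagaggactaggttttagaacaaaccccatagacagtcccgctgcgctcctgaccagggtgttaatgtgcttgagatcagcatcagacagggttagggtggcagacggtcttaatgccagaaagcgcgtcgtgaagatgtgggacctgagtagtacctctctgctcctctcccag
Duoxa2: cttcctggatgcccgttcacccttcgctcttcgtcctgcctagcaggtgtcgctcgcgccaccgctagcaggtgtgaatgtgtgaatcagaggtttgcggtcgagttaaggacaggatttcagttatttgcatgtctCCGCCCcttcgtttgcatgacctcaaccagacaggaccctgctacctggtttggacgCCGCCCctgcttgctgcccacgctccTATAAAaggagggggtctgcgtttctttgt
TATAAA was found 30 bases before the Duoxa2 start, and 13.6% of 32851 promoter windows (300 bases, 250 before to 50 after the start) held it on either strand. GGGCGG was found on the other strand of the Duoxa2 window, 113 and 56 bases before the start, and was in 35.7% of windows. CCAAT was found on the other strand of the Duox2 window 183 bases before the start and was in 37.4% of windows. The Duox2 window held neither TATAAA nor GGGCGG.

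The peroxidase and the peroxide source were found in different epithelial cells. Lpo had the most UMIs of the 5 genes, 10499 in 4414 cells (18.9% of cells), and 85.6% of its UMIs were in acinar-like cells, the secretory end pieces of the gland. Duoxa2 had 1041 UMIs in 188 cells (0.805%), of which 77.9% were in 1 duct cluster of 2683 cells. Duox2 had 367 UMIs in 147 cells (0.630%), of which 69.2% were in the same cluster. This cluster carried markers of both Klk1-positive duct and Ascl3-positive duct cells and is called the Klk1/Ascl3-like duct cluster here. The 5 genes themselves had been held out of the clustering. Duoxa1 had 38 UMIs in 35 cells. Duox1 had 2 UMIs in 2 cells, both in a basal-like cluster of double-mutant glands, fewer than the 3 counts that a count of 0 would still allow, so its level was not detectable at this depth.

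Duoxa2, Duox2 and Lpo were also distributed differently over the cells that held them. Duoxa2 was concentrated: 72 cells with 5 or more UMIs held 79.2% of its UMIs, and the highest cell had 69. Duox2 was less so, with 40.6% of its UMIs in 22 cells of 5 or more and a highest value of 12. Lpo was spread widely, with 35.5% of its UMIs in 506 such cells, 2121 cells with 1 UMI and a highest value of 23.

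**Figure D1:**
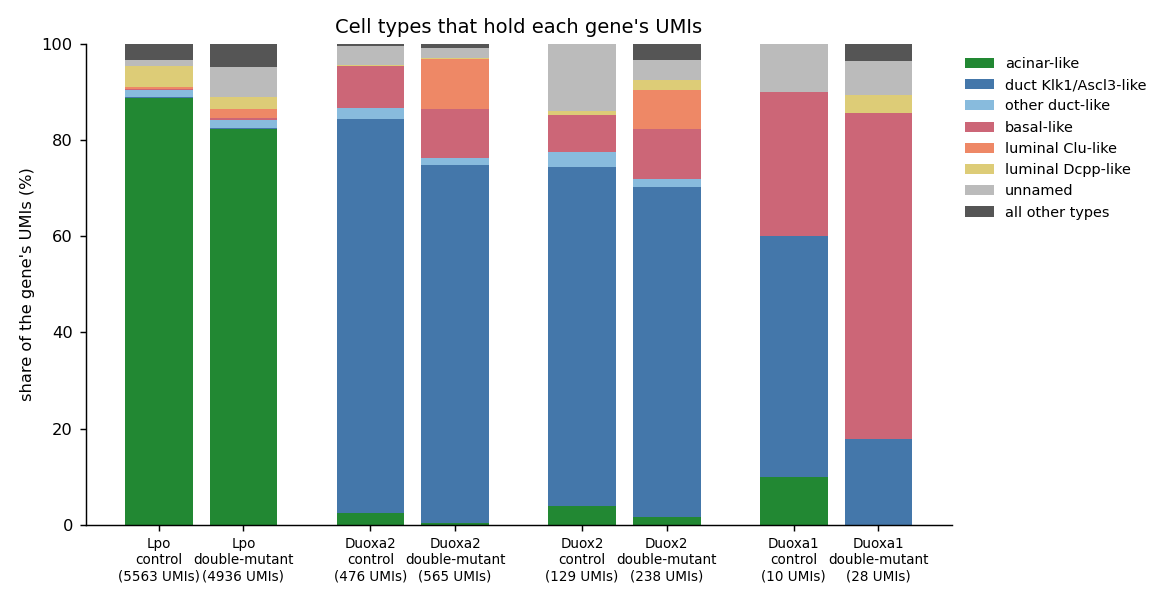
Share of each gene's UMIs (%, stacked bars from 0 to 100) by cell type, for control and double-mutant Drop-seq glands, with the number of UMIs under each bar. Lpo UMIs lay mostly in acinar-like cells (88.7% in control, 82.2% in double-mutant glands), Duoxa2 and Duox2 UMIs in the Klk1/Ascl3-like duct cluster, and those of Duoxa1, only 10 and 28 in number, largely in basal-like cells of double-mutant glands.

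With UMIs pooled over glands, the separation held in each genotype. In control glands 81.9% of Duoxa2 and 70.5% of Duox2 UMIs were in the Klk1/Ascl3-like duct cluster, and in double-mutant glands 74.5% and 68.5%. By gland, the share of Duox2 and Duoxa2 UMIs in duct-like cells was 42.9% to 100% in control and 7.14% to 100% in double-mutant glands. Double-mutant P40 replicates 3 and 4 held 213 and 229 of these UMIs. In double-mutant P40 replicates 2 and 6, only 1 of 14 and 2 of 17 were in duct-like cells. There 12 and 10 were in luminal Clu-like, cancer stem cell-like or tumor-led basal-like clusters. Luminal Clu-like cells were 4.84% ± 3.29 (SD, n = 14) of a gland's cells in double-mutants and 0.279% ± 0.187 (SD, n = 12) in controls. They held 10.3% of Duoxa2 and 7.98% of Duox2 UMIs in double-mutant glands and no Duoxa2 UMI in control glands. The control glands had only 30 such cells, and of those in double-mutant glands 1.97% had a Duoxa2 UMI. The absence in controls therefore shows no difference between genotypes. Of Duoxa2, 8.61% in control and 10.3% in double-mutant glands was in basal-like cells. In control glands a further 14% of Duox2 UMIs were in unnamed clusters, among them one of 1040 cells led by noncoding genes and Lars2.

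To compare both classes within each gland, counts were summed over acinar-like cells and over all duct-like cells of the gland and given as counts per 1000000 UMIs (CPM). Lpo was at 111, 190 and 325 CPM (lowest, median, highest of 26 glands) in acinar-like cells and at 0, 11.4 and 108 CPM in duct-like cells. Its acinar-like level was the higher one in 26 of 26 glands, by 2.98 ± 1.04 (SD) on the log2(CPM + 10) scale (sign-flip permutation test, two-sided, p = 1e-05, the smallest that 100000 resamples can give). The peroxidase transcript was thus found at a higher level in the end pieces of every gland of either genotype.

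The oxidase and its maturation factor went the other way. Duox2 was at 42.5 ± 55.8 CPM (SD, n = 26; lowest 0, median 25.1, highest 244) in duct-like and at 0.277 ± 0.876 CPM in acinar-like cells, higher in duct-like cells in 23 glands and lower in 0, by 1.79 ± 1.25 on the log2(CPM + 10) scale (p = 1e-05, same permutation test). Duoxa2 was at 105 ± 98.7 CPM (SD, n = 26; 0, 84.0 and 386) in duct-like and at 0.320 ± 0.702 CPM in acinar-like cells, higher in duct-like cells in 25 glands and lower in 0, by 2.89 ± 1.47 (p = 1e-05, same permutation test). Since low values are damped by the pseudocount of 10 CPM, these differences understate the change of a low gene.

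**Figure D2:**
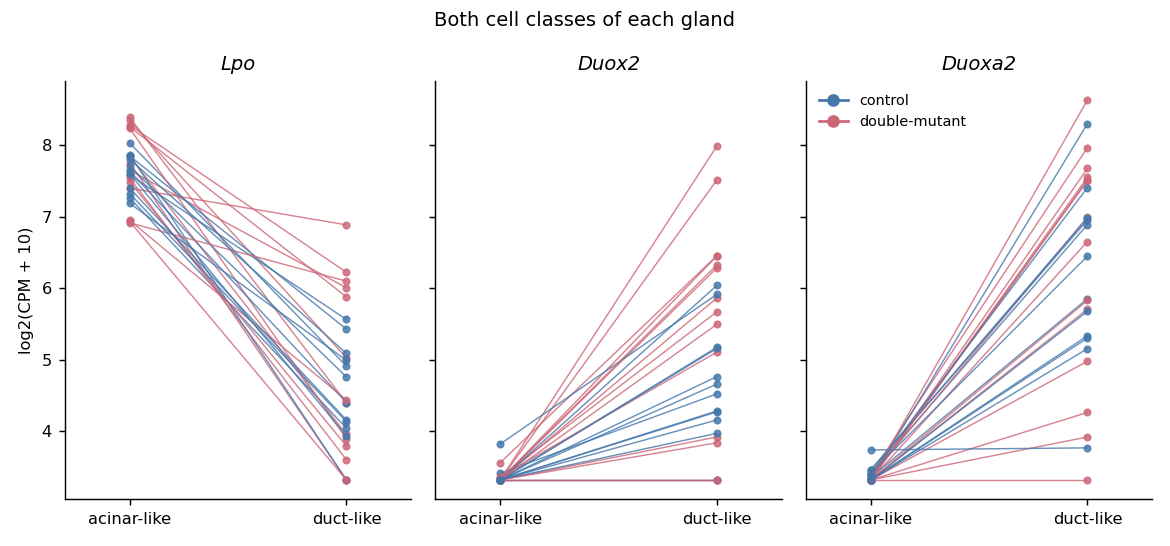
Level on the log2(CPM + 10) scale in acinar-like and duct-like cells, with 1 line per Drop-seq gland (12 control, 14 double-mutant) and 1 panel each for Lpo, Duox2 and Duoxa2. All 26 lines of Lpo go down from acinar-like to duct-like cells, while 23 of Duox2 and 25 of Duoxa2 go up and the rest are level.

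Over all cell types with at least 10 cells in a gland, the order of Lpo began with acinar-like cells at 201 ± 63.1 CPM (SD, n = 26 glands). It went on with luminal Clu-like cells at 98.6 ± 118 CPM (n = 12), endothelial-like cells at 65.9 ± 83.4 CPM (n = 22), Smgc/Esp4-like duct cells at 63.6 CPM (n = 24) and myeloid-like cells at 55.0 ± 51.4 CPM (n = 24). Unnamed clusters, at 89.0 ± 76.3 CPM (n = 24), lay between luminal Clu-like and endothelial-like cells. The ranges of neighbors in this order overlapped, also those of acinar-like (111 to 325 CPM) and luminal Clu-like cells (0 to 393 CPM). At the low end were the Klk1/Ascl3-like duct cluster at 14.4 ± 21.2 CPM (n = 26), Klk1-like duct cells at 14.1 ± 24.0 CPM (n = 15), Ig-producing-like cells at 6.07 ± 16.1 CPM (n = 7) and Egf-like duct cells at 5.90 ± 5.56 CPM (n = 7).

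The Lpo level of cells that are not epithelial was taken as the background of these droplets. Free RNA and doublets cannot be told apart in it, since no doublet caller was run. In endothelial-like cells 156 Lpo UMIs lay in 54 of 1008 cells. A Lpo UMI was seen in 46.5% of acinar-like cells (exact 95% interval 45.4 to 47.6, median depth 3731.5 UMIs), in 5.36% of endothelial-like cells (median depth 722.5) and in 2.65% of myeloid-like cells (median depth 637). After thinning each cell to 500 UMIs the shares were 8.26%, 1.04% and 0.848%. In the Klk1/Ascl3-like duct cluster the share was 1.08% before and 0.243% after thinning, which is at or below that of endothelial-like and myeloid-like cells. Intervals and limits from counts cover counting error only.

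Luminal Dcpp-like cells, a secretory type marked by the demilune genes Dcpp1, Dcpp2 and Dcpp3, differed from the other types in their ratio of Lpo to an acinar transcript. They held a Lpo UMI in 19.5% of cells (1.75% after thinning). Set against Prol1, an abundant acinar transcript, Lpo stood at 2.94 UMIs per 1000 Prol1 UMIs in acinar-like cells (95% Poisson interval 2.88 to 3.0) and between 2.50 and 4.82 in the other named types, but at 18.9 (17 to 21) in luminal Dcpp-like cells. The unnamed cluster led by Muc19 was at 13.3 (8.24 to 20.3). In the 6 glands with at least 500 Prol1 UMIs in luminal Dcpp-like cells, the ratio was 64.3, 37.5, 24.0, 11.1, 7.24 and 1.47 per 1000, higher than in the acinar-like cells of the same gland in 5 of 6. The mean difference was 2.23 ± 1.88 (SD) on the log2 scale (exact sign-flip permutation test, two-sided, p = 0.0625, where the smallest possible is 0.03125), so it did not pass the threshold.

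**Figure D3:**
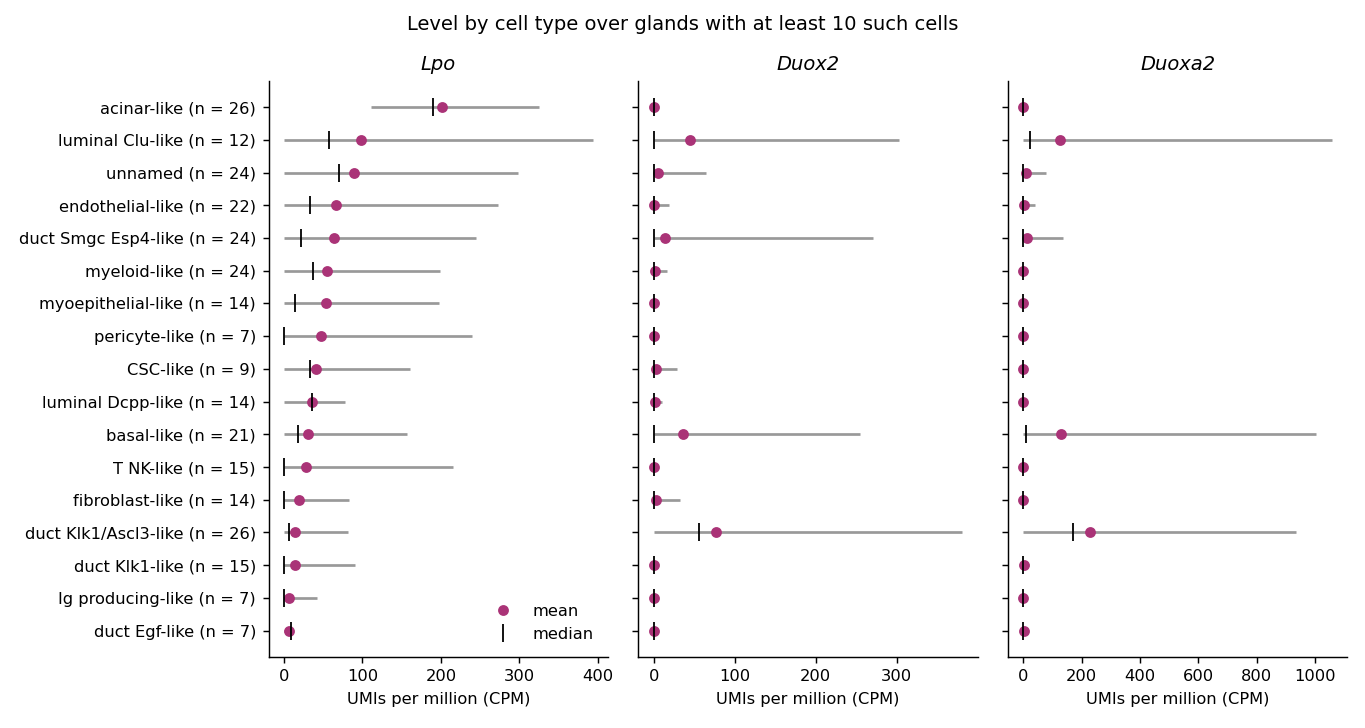
Level (CPM, linear axis that differs between panels) of Lpo, Duox2 and Duoxa2 by cell type in the Drop-seq glands, with the mean (point), the median (tick) and the range from lowest to highest gland (line), over glands with at least 10 cells of the type, whose number is given. Lpo is highest in acinar-like cells (201 CPM), whereas Duox2 and Duoxa2 are highest on average in the Klk1/Ascl3-like duct cluster (76.3 and 228 CPM), with long ranges in luminal Clu-like and basal-like cells.

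For Duox2 the highest level was in the Klk1/Ascl3-like duct cluster, at 0, 55.4 and 381 CPM (lowest, median, highest of 26 glands) with a UMI in 23 glands. Luminal Clu-like cells followed at 45.4 ± 92.4 CPM (SD, n = 12), but only 4 of 12 glands had a UMI, and basal-like cells at 36.2 ± 63.1 CPM (n = 21) with a UMI in 10 glands. The ranges of these 3 types overlapped. In glands with at least 10 cells of the type, no Duox2 UMI was seen in Klk1-like or Egf-like duct cells (over all glands 1 of 599 and 0 of 778 cells had one), nor in myoepithelial-like, pericyte-like or T/NK-like cells.

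Duoxa2 was found in the same 3 types. It was at 0, 170 and 934 CPM in the Klk1/Ascl3-like duct cluster with a UMI in 25 of 26 glands, at 129 ± 238 CPM (SD, n = 21) in basal-like cells with a UMI in 11 glands, and at 126 ± 300 CPM (n = 12) in luminal Clu-like cells with a UMI in 7. Smgc/Esp4-like duct cells, the intercalated type, were far lower at 11.5 ± 32.1 CPM (n = 24). These levels count UMIs and are compared between cells, not between genes.

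Within the Klk1/Ascl3-like duct cluster the transcripts sat in few cells. Duoxa2 was seen in 4.25% of its cells (3.52 to 5.08), 4.16% in control and 4.35% in double-mutant glands, and Duox2 in 3.39% (2.74 to 4.15), 2.94% and 3.88%. In acinar-like cells, which were deeper, the shares were 0.156% and 0.117%. When this cluster was clustered again together with the 599 Klk1-like duct cells, a sub-cluster of 96 cells from 22 glands, led by Sptssb, Srd5a1 and Hsd11b1, held 179 Duox2 and 599 Duoxa2 UMIs and 0 Lpo UMIs, and 50 of its 51 Duox2 cells also had Duoxa2. The sub-cluster of 705 cells led by Kcnj8, Hepacam2, Ascl3 and Foxi1, genes of ionocyte-like duct cells, held only 4 Duox2 and 17 Duoxa2 UMIs, although it shared the cluster with the cells that were high.

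The oxidase and its own maturation factor were seen in the same cells. A Duox2 UMI and a Duoxa2 UMI occurred together in 105 cells, which is 71.4% of Duox2 cells and 55.9% of Duoxa2 cells. In the Klk1/Ascl3-like duct cluster it was 77 cells, 84.6% and 67.5%. Of acinar-like cells, 21 had either gene and 0 had both. A Lpo UMI was seen in 15 of 230 cells with Duox2 or Duoxa2 (6.52%), beside 18.9% of all cells. The share differed by cell type. It was 9 of 21 (42.9%) in acinar-like cells, beside 46.5% of all acinar-like cells. In the Klk1/Ascl3-like duct cluster it was 1 of 128 (0.781%) beside 1.08%, and in luminal Clu-like cells 1 of 13 (7.69%) beside 7.67%. In basal-like cells it was 1 of 24 (4.17%) beside 1.39%, and in luminal Dcpp-like cells 2 of 5 (40%) beside 19.5%. All of these but the acinar-like share rest on 1 or 2 cells with Lpo.

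Duoxa1, the maturation factor that pairs with Duox1, had another distribution. Of its 10 UMIs in control glands 3 were in basal-like cells, and of its 28 in double-mutant glands 19 were. A basal-like cluster of 787 cells, 95% of them from double-mutant glands, was led by Chil1, Sostdc1, Krt6a and Wif1. Its double-mutant cells had Duoxa1 at 39.4 ± 29.6 CPM (SD, n = 11 double-mutant glands) with a UMI in 9 of 11. In that cluster 3 of 17 Duoxa1 cells had Duox2 or Duoxa2, whereas in the Klk1/Ascl3-like duct cluster 9 of 9 had. In the same 11 double-mutant glands this cluster had Duoxa2 at 127 ± 227 CPM with a UMI in 4 and Duox2 at 67.8 ± 130 CPM with a UMI in 5. Its 39 control cells were not lower when pooled. They had Duoxa1 at 45.7, Duoxa2 at 731 and Duox2 at 91.4 CPM, from 2, 32 and 4 UMIs. The pooled double-mutant cells had 30.4, 102 and 42.9 CPM. The 682 exon bases shared with Duoxa2 on the other strand bear on those Duoxa1 cells that also had Duoxa2, and their part was not tested.

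Levels in whole glands were then compared between genotypes. Lpo was at 101, 145 and 178 CPM (lowest, median, highest) in control glands at P40, at 38.8, 126 and 232 in double-mutant glands at P40, at 81.6, 104 and 164 in P90 controls and at 49.9, 99.0 and 260 in P90 double-mutants. The 4 groups overlapped, and double-mutant glands had a wider spread at both stages. Duox2 was at 0.419, 2.94 and 4.61 CPM in control and at 1.31, 12.3 and 16.3 CPM in double-mutant glands at P40, and at 0, 3.29 and 22.3 CPM and 0, 5.46 and 26.4 CPM at P90. At P40, 6 of 7 double-mutant glands were above the highest control gland. Of these, replicate 1 (14.4 CPM) was a doubted gland. Replicate 5 (12.3 CPM) had 8 UMIs from 1 cell, and replicate 2 (5.18 CPM) had 6 UMIs in 2 cells. Duoxa2 was at 2.85, 8.31 and 21.8 CPM in control and 1.54, 15.3 and 50.3 CPM in double-mutant glands at P40, and at 3.33, 16.6 and 35.2 CPM and 0.560, 7.48 and 48.9 CPM at P90, with overlap throughout.

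**Figure D4:**
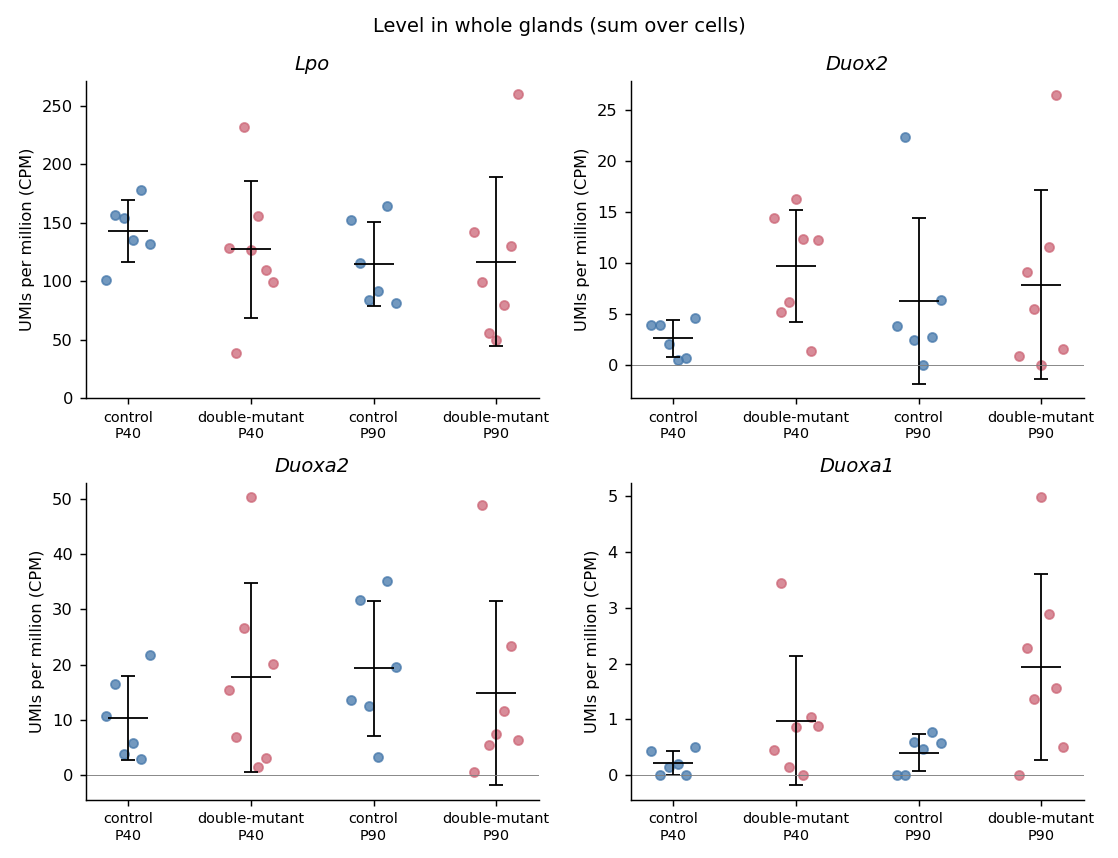
Level (CPM) of Lpo, Duox2, Duoxa2 and Duoxa1 in whole Drop-seq glands by genotype and stage, with 1 point per gland (6 control and 7 double-mutant glands at each stage), the mean (long dash) and the SD (bars). The groups overlap for every gene, and 6 of 7 double-mutant glands at P40 lie above the highest control gland (4.61 CPM) for Duox2. Of these, replicate 1 is a doubted gland, and replicates 5 and 2 rest on UMIs of 1 and 2 cells.

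None of the 3 genes that could be tested passed between genotypes, while 22% of 10488 genes did (edgeR quasi-likelihood test with stage and sex in the model, Benjamini-Hochberg adjusted). The log2 fold change (double-mutant over control) was 0.62 ± 0.52 (SE) for Duox2 (edgeR adjusted p = 0.40), -0.24 ± 0.51 for Duoxa2 (edgeR adjusted p = 0.77) and -0.44 ± 0.36 for Lpo (edgeR adjusted p = 0.37). CPM are per total UMIs, whereas fold changes come from the model on totals scaled by the TMM method. The 2 measures can therefore differ in size or sign. Mean Duoxa2 was 14.8 CPM in control and 16.3 CPM in double-mutant glands, although its fold change was negative. At P40, where 0.255% of 10213 genes passed, Duox2 had a log2 fold change of 1.33 ± 0.54 with an unadjusted p of 0.026 and an edgeR adjusted p of 0.17, and Lpo one of -0.82 ± 0.39 (adjusted p = 0.22). At P90, where 4.9% passed, Duox2 was at -0.18 ± 0.86, Duoxa2 at -1.02 ± 0.64 and Lpo at -0.12 ± 0.54 (edgeR adjusted p = 0.92, 0.37 and 0.91). The difference between stages in the genotype effect was -1.54 ± 1.02 for Duox2, -1.40 ± 0.98 for Duoxa2 and 0.79 ± 0.71 for Lpo on the log2 scale, and none of these passed (0.00876% of genes did). The difference between sexes in the genotype effect was 1.91 ± 1.01 for Duox2, with an unadjusted p of 0.069 by edgeR, and 0 genes passed (398 at an unadjusted p under 0.05). Without the 2 glands whose sex label was contradicted it was 1.73 ± 1.11.

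Within batches that held both genotypes, the Duox2 difference on the log2(CPM + 10) scale was 0.63, -0.53, 1.16, 0.25 and 0.92, beside 0.36 over all glands. For Lpo it was -0.20, -1.08, 0.03, 0.09 and -0.52, beside -0.19, and for Duoxa2 0.80, -1.06, 0.93, -0.03 and 0.69, beside -0.02. The sign was thus not shared by all 5 batches for any of the 3 genes. The batch with the Duox2 value of -0.53 held 1 double-mutant gland, the doubted P90 replicate 4. Without this batch Duox2 was of one sign, higher in double-mutant glands, while Lpo and Duoxa2 were not. In the batches with Duox2 values of 1.16 and 0.25, double-mutant glands of P40 and P90 were set against P40 controls only.

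Duoxa1 was too low for the model and was tested alone. It was at 1.46 ± 1.46 CPM (SD, n = 14) in double-mutant and 0.310 ± 0.283 CPM (n = 12) in control glands, with a UMI in 12 and 8 glands (permutation test, two-sided, p = 0.00372, not adjusted). This difference rests on 28 and 10 UMIs. Without the 3 doubted glands the double-mutant mean was 1.10 CPM and p = 0.0121 (permutation test). At P40 the means were 0.978 and 0.216 CPM (p = 0.0606, permutation test), and at P90 1.94 and 0.405 CPM (p = 0.028, permutation test), which became 1.14 CPM and p = 0.104 without the doubted glands. Within the 5 batches of both genotypes the difference on the log2(CPM + 10) scale was 0.16, 0.49, 0.13, 0.051 and 0.087, beside 0.14 over all glands, and so was of one sign. The batch with the value of 0.49 held 1 double-mutant gland, the doubted P90 replicate 4. The batch with 0.087 held 1 double-mutant gland, with 2 Duoxa1 UMIs. Basal-like cells, which held most Duoxa1 UMIs of double-mutant glands, were 8.02% ± 6.41 (SD, n = 14) of cells in double-mutant and 3.46% ± 3.19 (SD, n = 12) in control glands, and the part of this share in the difference was not tested. For Duox1, at 2 UMIs, the permutation test gave p = 0.56.

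Between stages no member passed. In control glands, where 10.9% of genes passed, Lpo at P90 against P40 had a log2 fold change of -0.74 ± 0.24 (edgeR adjusted p = 0.0698) and Duoxa2 one of 0.65 ± 0.48 (adjusted p = 0.47), and Duox2, tested alone, gave a permutation p of 0.348. With DESeq2 the Lpo value was -0.77 and its adjusted p 0.027, so that this call depends on the tool. In double-mutant glands 0 genes passed (586 at an unadjusted p under 0.05, and 3 with DESeq2), and Lpo was at -0.02 ± 0.61, Duox2 at -0.88 ± 0.66 and Duoxa2 at -0.91 ± 0.80.

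Between sexes in control glands, where 1% of genes passed, Lpo was at 138 ± 40.1 CPM (SD) in males and 120 ± 25.6 CPM in females, with a log2 fold change of 0.56 ± 0.24 (edgeR adjusted p = 0.35). Duoxa2 was at 12.4 ± 12.5 CPM in males and 17.2 ± 9.17 CPM in females (log2 fold change -0.26 ± 0.48), and Duox2 at 1.94 ± 1.43 and 6.90 ± 7.80 CPM (permutation test, two-sided, p = 0.0671).

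The level inside the cells that make each transcript was compared in the same way. In acinar-like cells Lpo was at 187 ± 35.8 CPM (SD, n = 12) in control and 213 ± 78.9 CPM (n = 14) in double-mutant glands, with a log2 fold change of 0.04 ± 0.16 (edgeR adjusted p = 0.96), while 2.61% of 4907 genes passed. The share of acinar-like cells with a Lpo UMI was 46.5% in both genotypes, and 7.64% in control and 9.17% in double-mutant glands at 500 UMIs per cell. Among acinar-like clusters Lpo ranged from 130 to 230 CPM. Acinar-like cells themselves were 41.8% ± 14.1 (SD, n = 12) of cells in control and 25.1% ± 15.7 (SD, n = 14) in double-mutant glands, and held 61.1% ± 10.2 and 43.8% ± 19.9 of the UMIs of a gland.

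In duct-like cells, where 2.37% of 5067 genes passed, Duox2 was at 0, 14.2 and 55.8 CPM (lowest, median, highest) in control and at 0, 44.6 and 244 CPM in double-mutant glands. Its log2 fold change was 1.19 ± 0.47 with an unadjusted p of 0.016 and an edgeR adjusted p of 0.18, and Duoxa2 was at 0.20 ± 0.49 (adjusted p = 0.90). The 2 genotypes differ in the makeup of the duct: Egf-like duct cells, which had no Duox2 UMI, were 8.01% ± 12.4 (SD, n = 12) of control and 0.510% ± 1.2 (SD, n = 14) of double-mutant cells. In the Klk1/Ascl3-like duct cluster alone, Duox2 was at 50.6 ± 37.1 CPM (SD, n = 12) in control and 98.4 ± 114 CPM (n = 14) in double-mutant glands, and Duoxa2 at 248 ± 246 and 210 ± 237 CPM. There the log2 fold changes were 0.73 ± 0.44 (edgeR adjusted p = 0.62) and -0.26. Acinar-like cells had Duoxa2 at 0.0634 CPM in double-mutant and 0.620 CPM in control glands (permutation test, two-sided, p = 0.0111, not adjusted, and 0.0273 without the doubted glands), both far below the level of the duct.

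In the 4 CITE-seq glands at P70, Lpo was the only member that passed between genotypes, whereas in the Drop-seq glands it had not passed. The whole-gland level of Lpo was 263 and 202 CPM in the control glands and 96.2 and 92.5 CPM in the double-mutant glands, which did not overlap. Its log2 fold change was -2.0 ± 0.27 (edgeR adjusted p = 0.0069, where 13.7% of 10058 genes passed and 4.47% were lower). That value is on TMM-scaled totals and is not the ratio of the CPM, whose means were 232 in control and 94.4 in double-mutant glands. Of the Lpo UMIs, 98.7% and 97.8% in control and 91.5% and 90.3% in double-mutant glands were in acinar-like cells. Those cells held 71.4% and 70.8% of the UMIs of the control glands and 37.5% and 25.8% of those of the double-mutant glands. Within acinar-like cells Lpo was at 363 and 279 CPM in control and at 235 and 324 CPM in double-mutant glands, which overlap. The control glands were 1 male and 1 female and the double-mutant glands were 2 females.

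Duox2 was at 0.572 and 5.89 CPM in the control and 7.26 and 38.8 CPM in the double-mutant CITE-seq glands. These values did not overlap either, but Duox2 did not pass (log2 fold change 1.85 ± 0.90, edgeR adjusted p = 0.19). Duoxa2 was at 0 and 24.5 CPM in control and at 15.4 and 32.8 CPM in double-mutant glands (0.11 ± 1.02, edgeR adjusted p = 0.96). With 2 glands a group, a lack of overlap is weak evidence. Of 11 cells with a Duox2 UMI and 12 with a Duoxa2 UMI, 9 had both. A cluster of 93 cells with markers of Egf-like and Klk1-like duct cells held 27 Duox2 and 57 Duoxa2 UMIs, and 17 of these Duox2 UMIs came from 1 double-mutant cell. A cluster of 215 cells with markers of luminal Clu-like and Smgc/Esp4-like cells held 19 and 36. No UMI of either gene was seen in the Ascl3-like duct cluster, at a median depth of 702.5 UMIs (0 of 52 cells, which allows up to 5.77% of cells with a UMI and sets no limit on cells that express the gene).

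In the bulk libraries, of 34515744 and 34729551 assigned reads, the order of the genes per transcript length was the same in both. Lpo was at 142 TPM in the wildtype and 88.9 TPM in the double-mutant gland, Duox2 at 6.69 and 5.77 TPM, Duoxa2 at 6.55 and 5.59 TPM, Duoxa1 at 0.294 and 0.251 TPM and Duox1 at 0.0145 and 0.0195 TPM. Per length, the values of Duox2 and Duoxa2 were close to each other, and Lpo was above both. The length used for Duoxa2 takes in the 682 exon bases shared with Duoxa1, which are 42.8% of its exon bases. If reads of these bases were left unassigned, the TPM of Duoxa2 is too low. Their assignment was not tested, so these values do not show that Duox2 and Duoxa2 were at one level. The ratio of double-mutant to wildtype CPM was 0.617 for Lpo (17497 and 10864 reads, 95% interval from counting 0.602 to 0.632), 0.850 for Duox2 (1685 and 1441 reads, 0.792 to 0.912) and 0.841 for Duoxa2 (410 and 347 reads, 0.727 to 0.973). Among 13971 genes with at least 20 reads the Lpo ratio was at percentile 20.1. With 1 gland of each genotype, of different ages, there was no replicate check and no test, and fewer cells of a type and less RNA per cell cannot be told apart. Reads had been counted without a strand setting, so the shared exon bases of Duoxa2 and Duoxa1 also apply here.

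Other sources and users of hydrogen peroxide were taken from lists of the pathway. Of the phagocyte NADPH oxidase, the enzyme of the respiratory burst, 3 of the 5 genes reported were higher in double-mutant glands (14.4% of all genes tested were), with a median log2 fold change of 1.63 beside 0.02 over all genes. Cybb, its catalytic subunit, rose by 2.02 ± 0.41 on the log2 scale (SE, edgeR adjusted p = 0.0016), its partner Cyba by 1.63 ± 0.27 (adjusted p = 0.0003), and the cytosolic subunit Ncf1 by 2.05 ± 0.44 (edgeR adjusted p = 0.0023). Ncf4 and Rac2 were at 0.83 and 0.99 and did not pass. Cybb and Ncf1 lay mostly in other cells than Duox2: myeloid-like cells held 94.0% of Cybb, 62.5% of Cyba and 92.1% of Ncf1 UMIs. The sub-cluster of 96 duct cells that was high in Duox2 and Duoxa2 held 0 Cybb and 0 Ncf1 UMIs. Cyba had 11 UMIs there, at 71.8 CPM beside 39.7 CPM over all cells. Myeloid-like cells were 5.57% ± 4.34 (SD, n = 12) of control and 16.0% ± 8.83 (SD, n = 14) of double-mutant cells, and their part in the change was not tested.

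Of the other NADPH oxidases and organizers 2 of 6 genes could be tested, and Rac1, a small GTPase with many other roles, rose by 0.58 ± 0.19 (edgeR adjusted p = 0.0273). Of 4 other heme peroxidases only Pxdn, which acts on collagen IV of basement membranes, could be tested, and it rose by 1.22 ± 0.24 (adjusted p = 0.0013). Of 4 transporters of thiocyanate, iodide and chloride, Cftr and Ano1 were tested and had log2 fold changes of -0.43 and 0.08, and neither passed. Slc5a5, the sodium iodide symporter that also takes up thiocyanate, was too low for the model, with 122 UMIs of which 53 were in the Klk1/Ascl3-like duct cluster. Txndc11, a thioredoxin-domain protein that binds dual oxidases, was at 0.01 ± 0.20.

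Of 14 genes that remove peroxides, 1 rose and 3 fell, with a median log2 fold change of -0.14, beside 14.4% of all tested genes higher and 7.56% lower. Gpx3, the secreted glutathione peroxidase, rose by 2.61 ± 0.59 (edgeR adjusted p = 0.0035), and 65.5% of its UMIs were in fibroblast-like cells, which were 0.622% ± 0.360 (SD, n = 12) of control and 2.64% ± 1.42 (SD, n = 14) of double-mutant cells. The peroxiredoxins Prdx2, Prdx3 and Prdx6 fell by 0.43 ± 0.15, 0.67 ± 0.18 and 0.54 ± 0.15 on the log2 scale (edgeR adjusted p = 0.0428, 0.0097 and 0.0147). Catalase (Cat) did not pass, and 11.1% of its 3412 UMIs were in the sub-cluster of 96 duct cells that was high in Duox2 and Duoxa2.

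Finally, genes with the most similar pattern were taken over the 31 clusters of all Drop-seq glands, which share libraries and depth, by Pearson's r of log2(CPM + 10). For Lpo they were Pip (r = 0.964), Scgb2b27 (0.962), Oit1 (0.950), Scgb1b27 (0.941) and Car6 (0.939). All but Oit1 were abundant secretory transcripts, with 2326211 to 4982694 UMIs, whereas Oit1 had 8334. Pip and Oit1 were also among the acinar markers that named the clusters. For Duox2 the nearest gene was Duoxa2 (r = 0.945), and then Slc5a5 (0.870), Coch (0.824), F5 (0.823) and Sprr1a (0.817). For Duoxa2 it was Duox2, and then Gpr3 (0.868), Gm7897 (0.846), Slc5a5 (0.844) and Sprr1a (0.832). The oxidase and its maturation factor were thus each other's nearest gene of all with at least 100 UMIs.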

How the data were processed

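Single cells of submandibular glands had been captured by Drop-seq and CITE-seq, and RNA of whole glands sequenced in bulk. Per the methods of the study, the authors made the deposited UMI count tables with Drop-seq tools and STAR on mm10 and GENCODE vM7 with added Cre and EYFP, keeping barcodes by the knee of the cumulative curve, and removed human spike-in cells from the CITE-seq tables. The deposited bulk read counts came from STAR and featureCounts on exons with no strand setting, although the kit was stranded. Antibody tag counts were not used.

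Here cells with at least 100 genes and under 15% mitochondrial UMIs were kept (CITE-seq also under 2500 genes), and no doublet caller was run. Cells were clustered with scanpy 1.11.5 (2000 variable genes without the 5 members, 30 components, 20 neighbors, resolution 1). A cluster was named from fixed markers of which at least 3 were 2-fold higher in it and in 10% of its cells, a rule chosen after the clusters were seen. The members, lists and markers were chosen with earlier results of these data known.

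Counts were summed per gland and tested with edgeR 4.0.16 (quasi-likelihood, TMM, filterByExpr, stage and sex as covariates) at an adjusted p under 0.05, with DESeq2 1.42.0 as the alternative. Members that missed the filter were tested by permutation of their CPM. Classes within glands were compared by sign-flip permutation of log2(CPM + 10), with CPM as counts per 1000000 UMIs. TPM of bulk genes used the union of exons of each gene. Genes named were the 5 members, each gene of the lists that passed between genotypes apart from 1 that is not reported here, other list genes where stated, and the 5 genes most correlated with each abundant member. Names of leading cluster genes and the comparison with Prol1 were chosen after their values were seen. Alternatives covered the normalization and tool, the filter, thinned totals, the clustering resolution, the replicate block, batches and the pseudocount. Of the Drop-seq glands only the doubted ones were left out, whereas each CITE-seq gland was left out in turn. edgeR was tested on simulated data. Library totals set the precision, with 650301 UMIs in the cells of the shallowest gland.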

Additional observations from a re-analysis of the deposited data

Results flagged for a closer look

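In groups of 4 to 10 glands, the highest or lowest gland stood apart from the others by a gap too large for its group in 3 of 17 groups tested. Chance gives about 1 in 20 for normally distributed values. Low counts with many values of 0 are not so distributed, so this rate cannot be set against the 3 groups. Duox2 was at 22.3 CPM in control P90 replicate 2, and the next gland of the group was at 6.32 CPM. Duoxa1 was at 3.45 CPM in double-mutant P40 replicate 2, with the next gland at 1.04 CPM. Duox1 was at 1.25 CPM in double-mutant P90 replicate 4, one of the doubted glands, with the next at 0.280 CPM, and each of these values is 1 UMI. No difference of the genotype effect between stages or sexes passed for a member.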

How the results depend on the processing

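Lpo over acinar-like cells and Duox2 and Duoxa2 over duct-like cells kept their direction and passed under every alternative run, and so did the lower Lpo of the CITE-seq double-mutant glands. The number of genes called between genotypes (2308) was 3998 with the replicate block, 1047 with totals thinned and 1302 without the 3 doubted glands. At P40 (26) it was 681 with DESeq2, 1657 with no filter, 765 with the block, 4 thinned, 15 without double-mutant P40 replicate 1 and 15 without the doubted glands. At P90 (446) it was 996, 1430, 1147 and 270 in the same order, 235 without double-mutant replicate 5, 684 without replicate 4 and 261 without the doubted glands. For stage in control glands (988) it was 2235 with no filter and 305 thinned, and in double-mutant glands (0) 3 with DESeq2 and 232 with no filter. For sex (91) it was 205 with DESeq2, 616 with no filter, 10 with the block and 46 thinned, and for genotype by stage (1) 8 with DESeq2. In acinar-like cells (128) it was 227, 422 and 203 with DESeq2, no filter and the block, and in duct-like cells (120) 239, 322 and 217, 58 without the doubted glands and 15 in the Klk1/Ascl3-like cluster alone. In CITE-seq (1379) it was 644 with DESeq2, 2356 with no filter and 380 to 1050 with 1 gland left out. The causes were not tested.

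Single values turned in sign where they were near 0. Duoxa2 between genotypes was 0.31 with batch in place of stage, and -0.21 at P40 with the block. At P90 Duox2 was 0.39 with all barcodes, 0.13 without double-mutant replicate 4 and 0.22 without the doubted glands (but kept its sign at -0.15 without replicate 5), and Lpo 0.033 without replicate 5, 0.039 without replicate 4 and 0.19 without the doubted glands. For stage in double-mutant glands Lpo was 0.12, 0.11 and 0.26 under the same 3 settings (but kept its sign at -0.061 without P40 replicate 1). In acinar-like cells Lpo was -0.13 with no filter, -0.22 with the block and -0.054 at resolution 0.6, and Duoxa2 in the Klk1/Ascl3-like cluster alone was -0.26. In CITE-seq Duoxa2 was -0.40 without double-mutant replicate 2 and -0.87 without control replicate 1, and 7.45 (edgeR adjusted p = 0.0134) without control replicate 2, where the remaining control gland was at 0. Some values passed only under an alternative: with the block Lpo between genotypes (-1.03, edgeR adjusted p = 0.0176) and at P90 (-1.11, 0.0205) and CITE-seq Duox2 (2.07, 0.0181), and with no filter P40 Duox2 (1.28, 0.0042), P40 Lpo (-0.85, 0.0458), P90 Duoxa2 (-1.08, 0.0266), Lpo by stage in controls (-0.85, 0.0011), Duox2 in duct-like cells (1.1, 0.0041) and CITE-seq Duox2 (1.82, 0.0112). Replicate numbers do not pair the glands, since same-numbered glands had correlations of -0.36 to 0.57. Duox1 and Duoxa1 were limited by depth.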
